A study of Arabidopsis thaliana with 6 samples.

Results

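The genes described here are 6 neighbours on chromosome 3 of Arabidopsis thaliana, AT3G28780, AT3G28790, AT3G28810, AT3G28820, AT3G28830 and AT3G28840, out of 33037 features in the deposited gene tables. They were taken by their gene identifiers, and were chosen by their counts and fold changes between the genotypes in these same libraries, so that difference is given below as a description without a test. RNA had been extracted from closed flower buds and sequenced for 3 biological replicates per genotype, wild type and naa50-1. The labels give no treatment, plant age or accession, and do not say what the naa50-1 allele changes in the gene. The title of the series ties Naa50 to the breakdown of the tapetum, the anther layer that nourishes developing pollen. NAA50 encodes the catalytic subunit of an N-terminal acetyltransferase, an enzyme that adds an acetyl group to the first residue of proteins.

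DUF1216 is a protein domain of unknown function, and no biochemical role has been assigned to the 6 genes. RefSeq notes name the mature pollen stage among the places of expression of 5 of the 6, the exception being AT3G28820. Many pollen genes are transcribed late, in the vegetative cell of the grain, and their messenger RNA is carried into the pollen tube that grows through the pistil. A closed bud holds such grains together with tapetum, sepals, petals and carpels, so a level measured in whole buds mixes how many grains of a stage are present with how much RNA each grain holds. In these bulk samples, fewer cells of a type and less RNA per cell cannot be told apart.

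The cluster, meaning these 6 genes alone, spans 34203 bases of the TAIR10 assembly, from 10805857 to 10840059. AT3G28780, AT3G28790 and AT3G28810 lie on the minus strand, and AT3G28820, AT3G28830 and AT3G28840 on the plus strand. The gaps between neighbours run from 1532 bases, between AT3G28820 and AT3G28830, to 6481 bases, between AT3G28790 and AT3G28810. No other annotated gene overlaps any of the 6. RefSeq labels AT3G28780 and AT3G28790 putative transmembrane proteins, AT3G28830 a putative mucin-like protein, AT3G28840 a hypothetical protein, and AT3G28810 and AT3G28820 putative proteins like a subunit of the RNA polymerase II mediator. The first coding exon is of nearly the same size in all 6 genes, 345 to 357 bases. AT3G28790, AT3G28810, AT3G28820 and AT3G28830 have 3 coding exons, and their last coding exon is also of even size, 261 to 273 bases. Most of the difference in their length lies between these ends, where the middle exon runs from 690 bases in AT3G28810 and AT3G28820 to 1209 in AT3G28790. AT3G28780 and AT3G28840 have 2 coding exons, with 1674 and 831 bases in the second. The predicted proteins range from 391 residues for AT3G28840 to 674 for AT3G28780.

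The near-identical neighbours are AT3G28810 and AT3G28820. Their coding sequences are equally long, 1305 bases, and 95.6% of the bases are the same. Of the 58 differing bases, 27 lie in the first coding exon, 6 in the middle exon and 25 in the last. A run of 647 identical bases begins at coding base 364, counted from the A of the start codon. Bases 301 to 390, which cross the end of the first coding exon at base 351, show where the differences stop. The letters come from the RefSeq TAIR10.1 assembly, and capitals mark the 10 bases of this stretch that differ between the genes.
AT3G28810: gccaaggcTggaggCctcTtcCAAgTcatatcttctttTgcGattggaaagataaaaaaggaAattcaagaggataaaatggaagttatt
AT3G28820: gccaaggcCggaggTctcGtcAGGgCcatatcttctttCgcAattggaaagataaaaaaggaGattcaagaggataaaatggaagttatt

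The share of a gene that cannot be told from another copy was measured on exonic sequence. Of all windows of 50 bases in AT3G28810, 40.5% occur without a mismatch elsewhere in the nuclear genome or in another DUF1216 transcript, and 42.4% of those in AT3G28820. For windows of 100 bases the shares are 35.6% and 36.4%. The other 4 clustered genes have 0 such windows at either length. How reads that align to several places were counted is not given in the sources used here, so the split of counts between AT3G28810 and AT3G28820 is uncertain, while the other 4 counts do not share exact sequence of that length. AT3G28790 and AT3G28830, the next closest pair, match at 72.4% of aligned coding bases and share no exact run longer than 28 bases. AT3G28780 and AT3G28840, which both lack the third coding exon, match at 59.3%. All remaining pairs of the 6 lie between 41.6% and 56.9%.

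**Figure D1:**
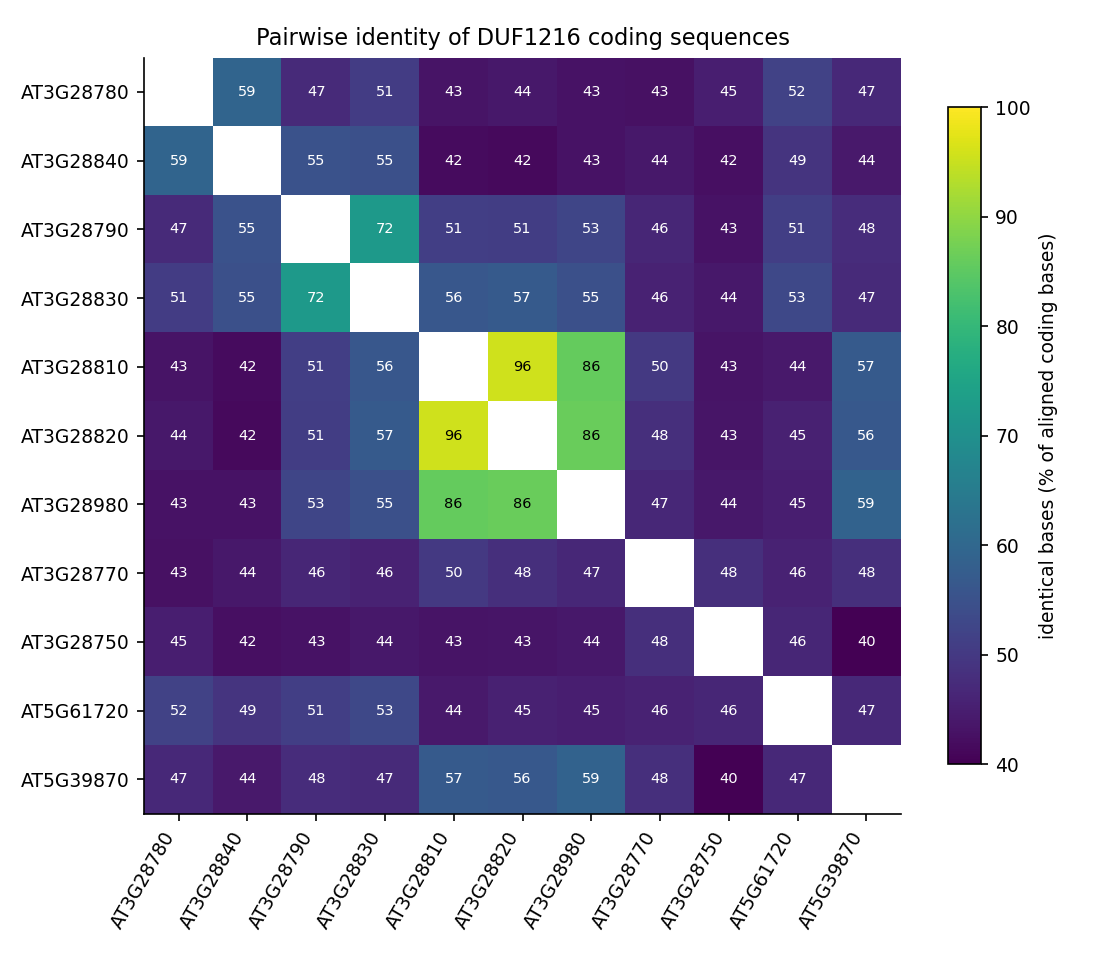
Pairwise identity of the coding sequences of 11 DUF1216 genes, in percent of aligned coding bases, as colour and rounded numbers; the diagonal is left blank. AT3G28810, AT3G28820 and the more distant AT3G28980 form a block of 85.9% to 95.6%, AT3G28790 and AT3G28830 match at 72.4%, and no other pair exceeds 59.3%.

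The bases just upstream of the annotated transcript starts were read for 5 of the 6 genes, AT3G28780, AT3G28790, AT3G28810, AT3G28830 and AT3G28840. Windows of 200 bases from the RefSeq TAIR10.1 assembly are printed 5′ to 3′ on the strand of the gene for 3 of them, chosen to show the closest pair (AT3G28790 and AT3G28830) and a gene with the shared letters in another place (AT3G28840). Capitals mark the MEF2-type CArG box (an A and T rich box bounded by CTA and TAG), the letters GACCTTAAA or AACCTTAAA, and the TATA-like TCTATATAA and TATAAA. Each was searched on both strands, and TCTATATAA and TATAAA overlap where they run into each other.
AT3G28790 (chr3:10815700-10815899, minus strand): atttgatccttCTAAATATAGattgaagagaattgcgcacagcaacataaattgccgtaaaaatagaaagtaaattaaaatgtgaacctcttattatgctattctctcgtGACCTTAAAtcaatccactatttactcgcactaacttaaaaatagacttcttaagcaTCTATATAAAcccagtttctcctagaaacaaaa
AT3G28830 (chr3:10830962-10831161, plus strand): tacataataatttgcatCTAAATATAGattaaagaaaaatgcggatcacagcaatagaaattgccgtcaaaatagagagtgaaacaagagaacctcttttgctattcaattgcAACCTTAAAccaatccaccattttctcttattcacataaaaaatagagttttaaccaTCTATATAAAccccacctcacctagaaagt
AT3G28840 (chr3:10838195-10838394, plus strand): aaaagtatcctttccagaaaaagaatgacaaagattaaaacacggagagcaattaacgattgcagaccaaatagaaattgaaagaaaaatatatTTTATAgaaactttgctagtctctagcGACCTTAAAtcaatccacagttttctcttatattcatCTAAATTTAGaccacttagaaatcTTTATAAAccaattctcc

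A MEF2-type CArG box was found upstream of 4 of the 5 genes, and in 502 of 27442 windows of the same length upstream of protein-coding genes (1.83%). Of the 6 DUF1216 genes outside the cluster 1 holds a box, AT3G28750, with the letters CTATTATTAG, and AT3G28770, AT3G28980, AT5G39870 and AT5G61720, which were also lower in naa50-1 (below), hold none. In AT3G28780, AT3G28790 and AT3G28830 the box reads CTAAATATAG and begins 186, 189 and 183 bases before the transcript start. These letters occur in 0.157% of all windows. In AT3G28840 the box reads CTAAATTTAG and begins 42 bases before the start. AT3G28810 holds CTAAACATAG instead, 55 bases before the start, which occurs in 19 windows of the genome (0.0692%), that of the related AT3G28980 among them. GACCTTAAA occurs in AT3G28780, AT3G28790 and AT3G28840 and in 0.215% of all windows, and AT3G28830 holds AACCTTAAA at the matching place (0.543% of all windows). TCTATATAA occurs in AT3G28780, AT3G28790 and AT3G28830, against 1.38% of all windows. The short letters AGAAA and GTGA, known from pollen promoters of tomato and tobacco, each occur in 4 of the 5 windows, and in 75.3% and 70.1% of all windows, so they do not set these genes apart. All letters except AGAAA and GTGA were picked after these sequences had been read, and a match is a description of letters, not a site. Over the whole window AT3G28790 and AT3G28830 match at 75.9% of aligned bases, and AT3G28810 and AT3G28980 at 69.4%. The A and T content of the 5 windows, 67.0% to 71.5%, lies close to the median of all windows, 68.5%.

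The libraries held 19727584 to 20813563 counts each. NAA50 (AT5G11340), read as the check of the labels, was higher and not lower in the libraries labelled naa50-1, at 552, 571 and 461 counts in the wild type and 49330, 54077 and 61988 counts under the mutant label (log2 fold change 6.67, adjusted p = 6.5e-08, edgeR). Each direction below is given for libraries carrying the label naa50-1. Wild type replicate 2 stood apart from the other wild-type libraries, with 0.335% of its counts in a list of 57 mature pollen genes against 0.219% and 0.241%, so values without it are given for the 6 genes, for the rest of the family and for the count of mature pollen genes called. As a check of the tissue, 11 of 11 genes of floral organs and pistils and 14 of 14 tapetum genes passed the filter on low counts. Of the floral organ genes, SEP3 had a mean of 303 CPM in the wild type and 375 CPM under the mutant label, and INO, the lowest of them, 10.8 and 10.7 CPM. No gene of these lists had a mean of 0 in either group, and the lowest was the tapetum regulator DYT1 at 0.757 and 0.901 CPM.

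Together the 6 genes took 26735, 31832 and 25770 counts in the wild-type libraries, and 216, 186 and 383 counts in those labelled naa50-1. As a share of each library this was 0.129%, 0.161% and 0.128% against 0.00107%, 0.000894% and 0.0019%. All 6 passed the filter on low counts, and in all 6 every library labelled naa50-1 lay below every wild-type library. Of all 21196 genes tested, 11.1% had groups that did not overlap with naa50-1 lower, while 5.59% were called lower and 3.94% higher at an adjusted p under 0.05. Because the genes were picked for this difference, nothing is read from the count of 6. Log2 fold changes below are naa50-1 minus wild type from the edgeR fit, with a standard error (SE). The SE is the size of the change over the square root of the F statistic, and no test is read from it for the 6 genes. Levels are FPKM, the authors' deposited counts per kilobase of gene, scaled by a constant of each library. In the wild type this constant was largest for replicate 2, which had the smallest count total, so FPKM and CPM can rank replicates differently.

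AT3G28830, the mucin-like gene, was the most abundant of the cluster. Its FPKM was 243, 302 and 251 in the wild-type libraries and 1.75, 1.48 and 3.87 in those labelled naa50-1. This is 265 ± 31.6 against 2.37 ± 1.31 (mean ± SD, n = 3 in each group, as for all means below), with a log2 fold change of -6.81 (SE 0.35). By mean wild-type FPKM it stood in place 313 among all features, of which 26219 had an FPKM above 0 in the wild type.

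AT3G28790, whose coding sequence is the closest to that of AT3G28830, lay below it in every library at a nearly even ratio. FPKM was 188, 231 and 185 in the wild type and 1.20, 1.26 and 2.88 under the mutant label, with means of 202 ± 25.6 and 1.78 ± 0.956. The log2 fold change was -6.83 (SE 0.33). The ratio of AT3G28790 to AT3G28830 in FPKM held within 0.738 to 0.773 in the 3 wild-type libraries and within 0.684 to 0.85 in the other 3, although the level of each gene was lower by more than 100-fold there (CPM ratios of 112 and 111; CPM is the count of a gene scaled to a fixed library total). Both had their highest residual level in naa50-1 replicate 3, at 162% and 164% of the group mean. Without that library their mean FPKM under the mutant label was 1.23 and 1.61.

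AT3G28840, the shortest of the 6 proteins, kept a larger share of its own wild-type level than the other 5 genes. Its FPKM was 113, 104 and 103 in the wild type and 2.21, 1.35 and 1.79 in the libraries labelled naa50-1, means of 106 ± 5.90 and 1.78 ± 0.434. The log2 fold change, -5.90 (SE 0.17), was the smallest in size of the cluster, and the level under the mutant label was 1.70% of that in the wild type on the CPM scale. Its ratio to AT3G28830 in FPKM was 0.465, 0.343 and 0.408 in the wild type and 1.27, 0.912 and 0.462 in the other libraries. In naa50-1 replicate 1 AT3G28840 thus exceeded AT3G28830, while in replicate 3 the ratio lay within the wild-type range.

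AT3G28780, the longest of the 6 proteins, had an FPKM of 67.5, 64.6 and 60.5 in the wild type and of 0.333, 0.138 and 0.284 under the mutant label. The means were 64.2 ± 3.54 and 0.252 ± 0.102, and the log2 fold change was -7.99 (SE 0.20), a 251-fold difference in CPM. Over the 3 naa50-1 libraries 37 counts remained, with an exact Poisson interval at 95% confidence of 26.1 to 51.0, which like the other intervals covers counting error only. AT3G28780 and AT3G28840 had the smallest spread over the wild-type libraries. Each had a coefficient of variation of 5.5% in FPKM, against 11.9% and 12.7% for AT3G28830 and AT3G28790.

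AT3G28820 had an FPKM of 29.7, 21.9 and 23.5 in the wild type and of 0.0311, 0.206 and 0.212 in the other libraries, from 1, 7 and 7 counts. The means were 25.03 ± 4.10 and 0.149 ± 0.103, with a log2 fold change of -7.34 (SE 0.31). The 15 counts over the group have an interval of 8.4 to 24.7. AT3G28810, its near-identical neighbour, was the least abundant member, with 151, 284 and 239 counts in the wild type, an FPKM of 4.61, 8.34 and 7.41 and a mean of 6.79 ± 1.94. No count was assigned to it in any library labelled naa50-1. Set against a floor of 3 counts over that group it was at least 226-fold lower, and its fitted log2 fold change of -10.83 depends on the prior count of the fit. This bound takes the split of counts between AT3G28810 and AT3G28820 as assigned, and does not cover the uncertainty of that split.

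Within the near-identical pair, the libraries ordered the genes differently. AT3G28810 was lowest in wild type replicate 1, at 68.0% of its mean, where AT3G28820 was highest, at 119% of its mean. AT3G28810 took 13.7%, 28.0% and 24.4% of the counts of the pair in the 3 wild-type libraries, while the sum of the pair moved less, at 1102, 1015 and 981 counts. In the libraries labelled naa50-1 the sum of the pair was 1, 7 and 7 counts. These shares rest on how the counting placed reads from the shared sequence described above.

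**Figure D2:**
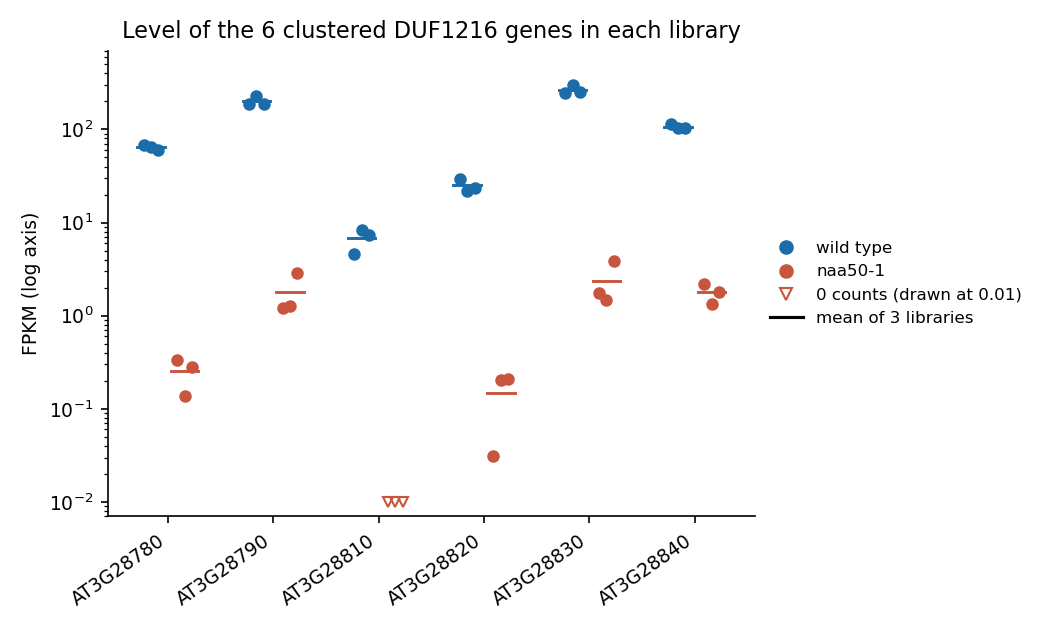
FPKM of the 6 clustered genes in each library on a log axis, with wild type in blue, naa50-1 in red and bars at the mean of 3 libraries; open triangles at 0.01 stand for 0 counts. Wild-type means run from 6.79 to 265 and naa50-1 means from 0 to 2.37, and in no gene do the groups overlap.

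On the FPKM scale the wild-type order of levels was AT3G28830, AT3G28790, AT3G28840, AT3G28780, AT3G28820, AT3G28810. In 5 of 5 neighbouring pairs of this order, the lowest library of the higher gene lay above the highest library of the lower gene. Leaving out any single wild-type library, replicate 2 included, kept 5 of 5. In CPM, which is not divided by gene length, 3 of 5 pairs were separated in this way. In the libraries labelled naa50-1 the order by FPKM was AT3G28830, AT3G28840, AT3G28790, AT3G28780, AT3G28820, AT3G28810, and 2 of 5 neighbouring pairs were separated.

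Over the wild-type libraries the 6 genes did not move as one in FPKM. AT3G28790, AT3G28830 and AT3G28810 were highest in replicate 2, at 115%, 114% and 123% of their means, as was the summed mature pollen list at 122%. AT3G28780, AT3G28820 and AT3G28840 were highest in replicate 1, at 105%, 119% and 106%. In CPM only AT3G28820 was highest in replicate 1. AT3G28780 stood at 155, 163 and 141 CPM and AT3G28840 at 171.4, 171.9 and 157.3 CPM, so their highest library depended on the scale. The wild-type means without replicate 2 were 187 for AT3G28790 and 247 for AT3G28830 in FPKM, and the log2 fold changes were then -6.71 for each. For AT3G28780, AT3G28820 and AT3G28840 they were -7.98, -7.42 and -5.92. AT3G28810 had a wild-type mean of 6.01 FPKM without it, and its fold, still against 0 counts, was -10.65.

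**Figure D3:**
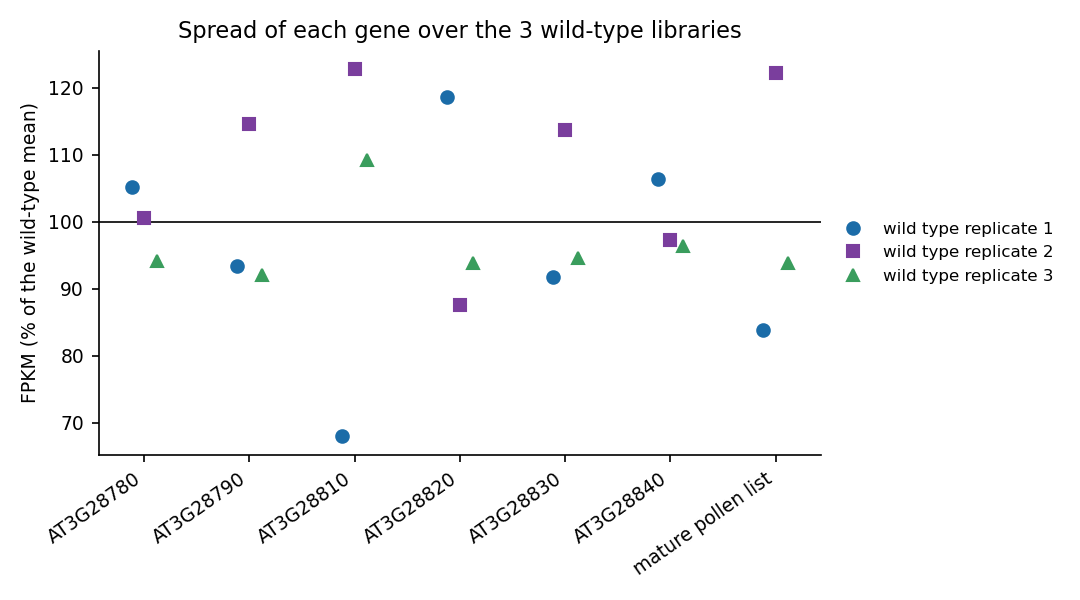
FPKM of each clustered gene, and of the summed list of 57 mature pollen genes, in the 3 wild-type libraries, as percent of the wild-type mean; the line marks 100%. On this scale replicate 2 is highest for AT3G28790, AT3G28810, AT3G28830 and the list, and replicate 1 for the other 3 genes. In CPM, not drawn, replicate 1 is highest for AT3G28820 alone.

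The cluster lies among genes of other kinds and 2 further DUF1216 genes, whose values are given to describe the stretch of chromosome around it. One of these 2, AT3G28770, lies 2403 bases from AT3G28780. That is within the range of the gaps between the 6 genes, 1532 to 6481 bases. The limits of the cluster are thus those of the 6 genes taken, not of the family on this stretch. The gene AT3G28785 between the members and the 10 annotated genes on each side were examined. Of these 21 genes 16 were tested, 2 were called lower and 1 higher (edgeR, adjusted p under 0.05, the threshold used throughout; 9.53% of all genes tested were called). The 2 lower genes are themselves annotated with DUF1216 in RefSeq, AT3G28750 and AT3G28770. Of the other 14 tested neighbours 0 were called lower, against 5.59% of all genes tested, so this count does not set them apart. Of the same 14, 0 were lower at an unadjusted p under 0.05 and 0 by DESeq2 or limma. Their median log2 fold change was 0.08, against -0.01 over all genes. AT3G28760, which encodes a protein described as a 3-dehydroquinate synthase and sits between AT3G28750 and AT3G28770, stood at 18.2 ± 0.575 FPKM in the wild type and 17.6 ± 0.585 under the mutant label (log2 fold change -0.06, SE 0.10, adjusted p = 0.839, edgeR). It was singled out for its place after its values were seen. AtRLP43 (AT3G28890), a receptor-like protein gene at the far end, was the gene that rose, with 2.44 ± 0.641 CPM in the wild type and 7.003 ± 1.31 CPM under the mutant label (log2 fold change of 1.48 with SE 0.26, edgeR adjusted p = 0.00502).

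**Figure D4:**
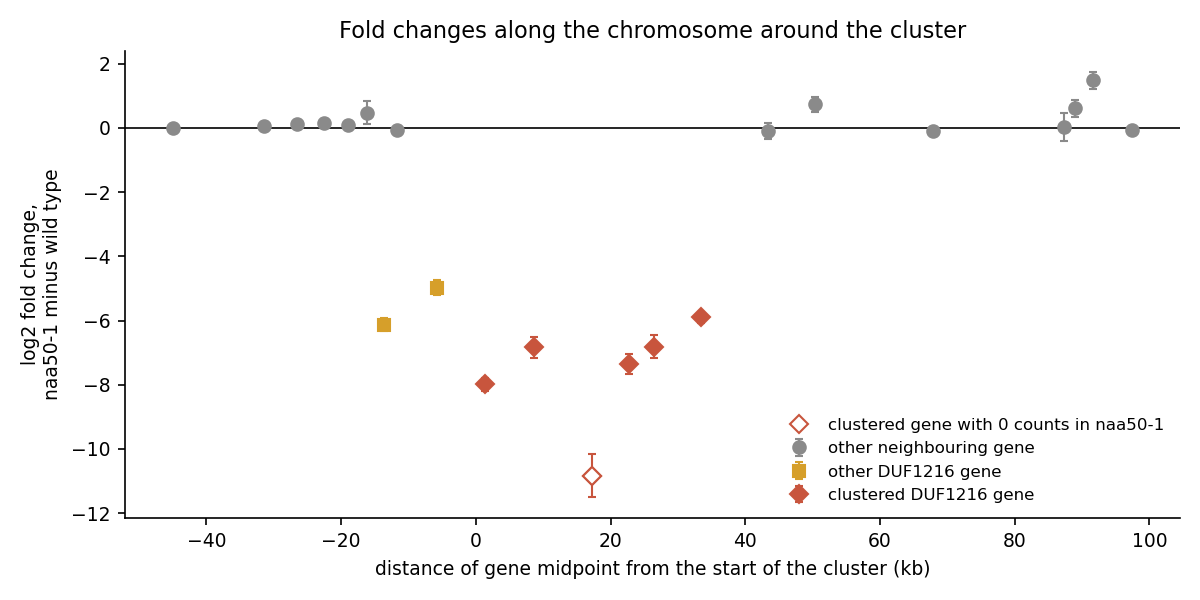
Log2 fold change of the tested genes around the cluster against the distance of the gene's midpoint from the start of the cluster in kilobases, with bars of 1 SE; the open diamond is AT3G28810, whose value rests on 0 counts in naa50-1. The 6 clustered genes lie between -5.90 and -10.83, AT3G28750 and AT3G28770 at -6.13 and -4.98, and the other 14 neighbours between -0.09 and 1.48.

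The rest of the family was not used to choose the 6 genes, and could be tested. RefSeq annotates DUF1216 in 12 genes, the 6 clustered ones and 6 more. Of these 6, 5 passed the filter on low counts and 5 of 5 were called lower, against 5.59% of all genes tested. By the word DUF1216 in the deposited descriptions the count is 3 of 3 tested, because AT3G28750 and AT5G61720 are described otherwise there. The family was known to share a pattern in these libraries when it was taken up, so the count is no independent evidence.

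AT3G28980, which lies 153057 bases beyond AT3G28840 and matches AT3G28820 at 86.3% of coding bases, had an FPKM of 187, 242 and 197 in the wild type and of 0.789, 1.41 and 2.25 in the libraries labelled naa50-1. Its log2 fold change was -7.14 with an SE of 0.31 (edgeR adjusted p = 5.97e-07). Of its windows of 50 bases, 1.63% have an exact copy elsewhere. With 209 ± 29.5 FPKM in the wild type it stood far above AT3G28810 and AT3G28820, the genes it resembles most.

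AT5G61720, on chromosome 5, had an FPKM of 83.3, 89.4 and 86.3 in the wild type and of 0.267, 0.450 and 0.463 under the mutant label. Its log2 fold change of -7.76, with an SE of 0.17 (edgeR adjusted p = 2.64e-08), is close to that of AT3G28780. AT3G28750, which has a single coding exon, had 122, 182 and 147 FPKM against 2.22, 1.89 and 2.34 (log2 fold change -6.13, SE 0.20, adjusted p = 1.34e-07, edgeR). AT3G28770, whose predicted protein of 2081 residues is the longest of the family, was low in the wild type, at 2.98, 3.18 and 2.74 FPKM, and fell to 0.137, 0.0719 and 0.0739 (log2 fold change -4.98, SE 0.24, adjusted p = 1.23e-06, edgeR). AT5G39870 had 133, 249 and 200 counts in the wild type and 0 in each library labelled naa50-1, at least 195-fold lower at the same floor (adjusted p = 3.79e-05, edgeR). The remaining gene, AT5G48575, had 1 count in all 6 libraries together and was not tested. Without wild type replicate 2, adjusted p of the 5 genes was at most 0.000231.

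**Figure D5:**
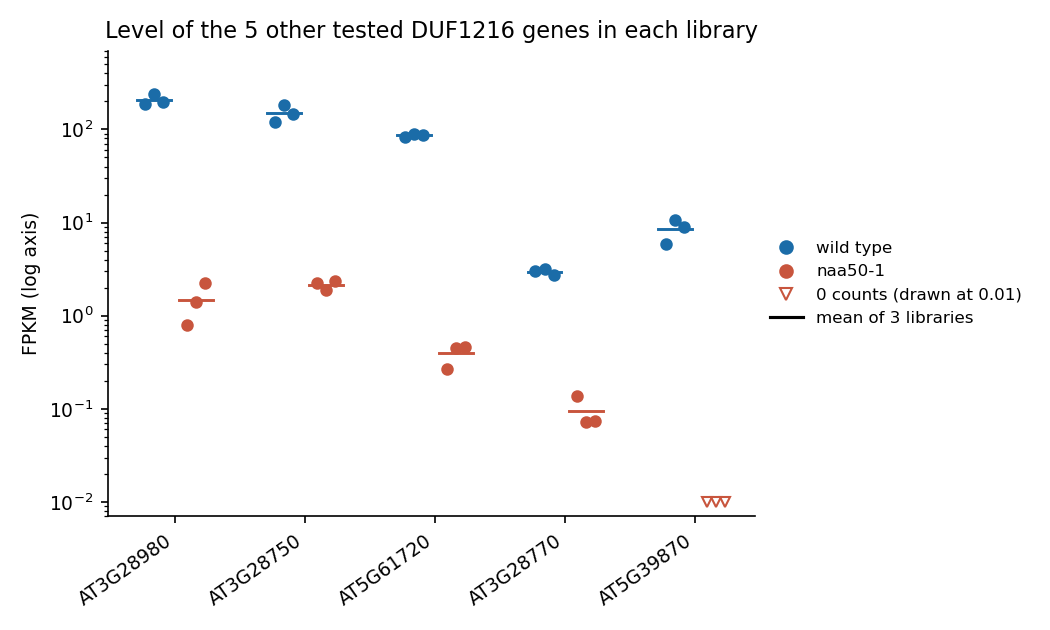
FPKM of the 5 other tested DUF1216 genes in each library on a log axis, with wild type in blue, naa50-1 in red, bars at the mean of 3 libraries and open triangles at 0.01 for 0 counts. AT3G28980 and AT3G28750 reach wild-type means of 209 and 150 FPKM, AT3G28770 and AT5G39870 stay below 11, and in no gene do the groups overlap.

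The place of the family among abundant transcripts was counted. Of 2303 tested genes with a mean wild-type FPKM of 50 or more, 37 had a log2 fold change below -5, among them 4 genes of the cluster and 3 other DUF1216 genes. Of 1035 genes at 100 FPKM or more, 25 were below -5, among them 3 of the cluster and 2 others of the family. The clustered genes were chosen by their counts and fold changes, and the family was known to share their pattern. Nothing is therefore read from their number here.

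The genes whose profile over the 6 libraries was most like the mean profile of the cluster were found by the root mean square difference in log2(CPM + 1). They were BGAL11 (AT4G35010), a beta-galactosidase, at 0.246, UNE15 (AT4G13560) at 0.254, AT5G38760 at 0.298, AHA6 (AT2G07560), a plasma membrane proton pump of pollen, at 0.337, PAB3 (AT1G22760), a poly(A)-binding protein of reproductive tissue, at 0.358, and AGP6 (AT5G14380), an arabinogalactan protein of pollen, at 0.374. Their log2 fold changes ran from -5.95 for PAB3 to -7.18 for AHA6. BGAL11 had 97.6, 143 and 107 CPM in the wild type and 0.795, 0.673 and 1.49 CPM under the mutant label. Like the mean log2(CPM + 1) profile of the cluster, it was highest in wild type replicate 2 and in naa50-1 replicate 3. Single clustered genes could differ, since AT3G28780 and AT3G28840 were highest in naa50-1 replicate 1. The likeness is a description over 6 libraries that differ mainly by genotype.

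Markers of mature pollen moved with the cluster. Of 57 such genes 55 were tested, 53 were called lower and 0 higher, also 0 at an unadjusted p under 0.05 and 0 by DESeq2 or limma, and the median log2 fold change was -5.79 against -0.01 over all genes tested. Without wild type replicate 2, 51 were called lower. VGD1 (AT2G47040), a pectin methylesterase needed for pollen tube growth in the style, fell from 393 ± 101 CPM to 2.14 ± 0.938 CPM (edgeR log2 fold change -7.54 with adjusted p = 5.25e-07). PPME1 (AT1G69940), another pollen pectin methylesterase, fell from 207 ± 36.1 CPM to 0.655 ± 0.121 CPM (edgeR log2 fold change -8.32 with adjusted p = 2.64e-08). AHA6 fell from 120 ± 9.33 CPM to 0.839 ± 0.575 CPM (edgeR log2 fold change -7.18 with adjusted p = 3.30e-07). The summed list stood at 2191, 3350 and 2409 CPM in the 3 wild-type libraries and ran from 128 to 150.1 CPM in the libraries labelled naa50-1, with 6 of 57 genes at 0 in all of the latter. Per count of this list, the cluster had 0.587, 0.482 and 0.529 counts in the wild type and 0.0839, 0.0679 and 0.126 counts under the mutant label. Since the 6 genes were chosen by their fold changes, nothing is read from this ratio. The part of pollen content in the difference of the cluster was not tested.

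Transcription factors of late pollen did not all behave alike. Of 10 listed, 8 were tested, 4 were called lower and 0 higher, with 0 higher at an unadjusted p under 0.05 and 0 by DESeq2 or limma, and the median log2 fold change was -1.08. AGL104 (AT1G22130), a MADS-box factor of the MIKC* class that acts late in pollen, fell from 9.73 ± 2.73 CPM to 0.296 ± 0.151 CPM (edgeR log2 fold change -5.03 with adjusted p = 1.84e-05). AGL66 (AT1G77980), of the same class, fell from 5.53 ± 1.97 CPM to 1 count over the 3 naa50-1 libraries (log2 fold change -7.96, adjusted p = 2.87e-05, edgeR). MIKC* factors are known to bind MEF2-type CArG boxes; whether they act on the cluster was not tested. WRKY34 (AT4G26440), a factor of male gametophyte development, fell from 3.52 ± 1.74 CPM to 0.327 ± 0.272 CPM (edgeR log2 fold change -3.42 with adjusted p = 0.00437). AGL30, AGL65, WRKY2 and MYB101 did not pass, with log2 fold changes from -0.68 to -0.36.

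Among the other cells of the bud, 4 of 6 tested sperm cell genes were called lower, against 5.59% of all genes tested. None was called higher, with 0 higher at an unadjusted p under 0.05 or by DESeq2 or limma. HTR10 (AT1G19890), a histone H3 variant of sperm, fell from 84, 125 and 107 counts to 0, at least 106-fold at the floor of 3 counts (edgeR adjusted p = 5.44e-05). GEX3 and DAZ2, also at 0 under the mutant label, were at least 17.4-fold and 12.8-fold lower at that floor (edgeR adjusted p = 0.00241 and 0.00391). Of 14 tapetum genes 0 were called in either direction, against 9.53% of all genes tested, so this count does not set them apart. It was also 0 at an unadjusted p under 0.05, and 0 by DESeq2 or limma. Without wild type replicate 1, 3 were called higher. The tapetum gene with the smallest p was CYP703A2 (AT1G01280), a hydroxylase of sporopollenin synthesis, at 33.9 ± 12.8 CPM in the wild type and 46.6 ± 8.83 under the mutant label (log2 fold change 0.42, adjusted p = 0.434, edgeR). Summed over the tapetum list, wild type replicate 1 stood apart at 1164 CPM, against 632 and 776 CPM in wild type replicates 2 and 3. The libraries labelled naa50-1 ran from 924 to 1063 CPM. Of 11 genes of floral organs and pistils 1 was called lower, CRC (AT1G69180), a carpel and nectary regulator, from 41.2 ± 4.89 CPM to 27.8 ± 1.78 CPM (edgeR log2 fold change -0.59 with adjusted p = 0.00566). None of the 11 was called higher, with 3 higher at an unadjusted p under 0.05, 1 by DESeq2 and 0 by limma.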

How the data were processed

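RNA was sequenced from closed buds of 3 wild-type and 3 naa50-1 samples. The submitters' processing notes name the aligner HISAT2 2.0.5 and the build TAIR10. They give no counter, strand setting, treatment of reads with several alignments or annotation release. The authors deposited whole-number counts per gene and FPKM per gene. In each library the deposited FPKM equalled the count divided by gene length and by a constant of the library, for 100% of values from at least 50 counts (tolerance 1e-06). The authors also deposited a comparison with a normalized mean signal per group, a log2 fold change and p-values. These were not used beyond the next sentence. In the authors' deposited table the log2 fold changes of the 6 genes run from -10.28 to -5.90.

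From the counts, 21196 genes passed filterByExpr, were scaled by TMM and compared by the edgeR 4.0.16 quasi-likelihood test (R 4.3.3) with Benjamini-Hochberg adjustment over all of them and a threshold of 0.05. CPM here is the raw count over the library total. Group means are over 3 libraries and intervals cover counting error only. On simulated data over 20893 genes for the same comparison, the test recovered 14.9% of genes changed 1.5-fold, 61.5% changed 2-fold and 95.5% changed 4-fold, with 18 false of 131 calls. Each pair of replicates had a chi-square of 12.9 to 28.2 for each degree of freedom, so none were copies of a library. The labels call them biological replicates without naming separate plants.

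The 6 genes, the gene lists and the tests were chosen with earlier results of these data known. Named genes were the 6, neighbours past the threshold, other DUF1216 genes, the 6 genes most alike in profile, and from each list the 3 with the smallest p past the threshold, or the smallest p where none passed. Coding sequences were aligned with MAFFT 7.526. RefSeq TAIR10.1 coordinates equalled the deposited ones for 32532 of 32548 matched genes, and for 12 of 12 DUF1216 genes. The upstream window of AT3G28820 is not reported here. Alternatives were other size factors, no filter, DESeq2 1.42.0, limma 3.58.1 on log2(FPKM + 1) and log2(FPKM + 0.1), a replicate block, each library left out, and, added after the data were seen, the RefSeq annotation of the family.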

Additional observations from a re-analysis of the deposited data

How the results depend on the processing

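Under 12 alternatives the 6 clustered genes stayed below 0 in 72 of 72 fold changes. As the genes were chosen by large fold changes in these same libraries, this direction could hardly change, and nothing is read from it. The pseudocount moved the low genes most. With log2(FPKM + 1) AT3G28810 was at -2.93, AT3G28820 at -4.49, AT3G28780 at -5.70 and AT3G28840 at -5.28, and AT3G28810 was at -6.06 with log2(FPKM + 0.1). The number of genes called was 2021 and ran from 1645, without wild type replicate 3, to 2474 by DESeq2. The 5 tested DUF1216 genes outside the cluster were called in every alternative. The family count of 3 by deposited description became 5 by RefSeq annotation, since that adds genes, and the order of wild-type levels was separated in 3 of 5 pairs on CPM, where length is not divided out. The sum of called sperm, tapetum and floral organ genes, 5 in the main comparison, was 7 without a filter and 8 by DESeq2 (cause not tested), and ran from 5 to 9 with single libraries left out. The 9, without wild type replicate 1, included 3 tapetum genes called higher; its cause was not tested. Same-numbered libraries of the genotypes correlated at -0.004, 0.06 and 0.10 in their deviations from the group means, so the numbers are not shown to pair the samples; with the replicate block 1969 genes were called. Depth limits AT3G28810 and AT5G39870, whose folds are lower bounds, and AT3G28820, with 15 counts in naa50-1. The bound of AT3G28810 holds only for the counts as assigned within its pair.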
